A study of Mus musculus with 4 samples.

Results

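The 10 genes described here encode small calcium-binding and membrane- or sugar-binding proteins and were chosen by name: the S100 genes S100a4, S100a6, S100a10, S100a11 and S100a13, the annexin genes Anxa1 and Anxa2, the galectin genes Lgals1 and Lgals3, and Crip1, which encodes a small LIM-domain protein. They are 10 of the 31053 genes in the count matrices, and all 10 had UMIs (unique molecular identifiers, 1 per counted RNA molecule) in T cells. S100 proteins bind calcium through EF-hand motifs and act mostly as dimers on partner proteins inside the cell. S100a10 is an exception that no longer responds to calcium and forms a complex with Anxa2 at the membrane. Annexins bind phospholipid membranes when calcium is present, and galectins bind galactose-containing sugars on glycoproteins inside and outside the cell. In T cells, transcripts of S100a4, S100a6, Lgals1 and Crip1 are commonly low in naive cells and higher in cells that have met antigen.

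T cells were sorted from the meninges or the choroid plexus of female C57BL/6 mice that were young (10 weeks old) or aged (18 months old), and droplet single-cell RNA sequencing counted the 5′ ends of transcripts. The labels name no transgene or treatment for any group, so the groups differ by age and tissue. Cells of 5 mice went into each of the 4 libraries, so every condition is 1 library. Differences between libraries therefore have no replicate check, no p-value is given, and all intervals are 95% intervals that cover counting error only.

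Values for the 4 libraries are given in a fixed order: young meninges and young choroid plexus first, then aged meninges, then aged choroid plexus. After filtering they held 1007, 605, 1408 and 1094 T cells, defined by at least 1 UMI of the CD3 genes Cd3d, Cd3e and Cd3g, with a median depth of 3198, 2978, 2312.5 and 2838.5 UMIs per cell. A T cell was called CD4 when it had UMIs of Cd4 but not of the CD8 genes Cd8a and Cd8b1 (254, 160, 362 and 230 cells), and CD8 when the opposite held (254, 160, 281 and 473 cells). Although the sort was for CD4 and CD8 T cells, 481, 269, 735 and 358 cells had a UMI of neither and form a class of their own ("neither"), and 18, 16, 30 and 33 cells with UMIs of both kinds were left out of the comparisons. The T cell list (Cd3d, Cd3e, Cd3g and Trac) summed to between 3214 and 3974 CPM (the UMIs of a gene scaled to counts per 1000000 UMIs of the class) over the 12 combinations of library and class. Pairs of libraries shared between 0 and 3 cell barcodes, and in the 3 pairs that shared more than 1, cells with the same barcode were as alike (median correlation 0.391 to 0.590) as cells with other barcodes (0.385 to 0.574).

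In the GRCm38 annotation (GENCODE vM21), 3 of the S100 genes lie in 1 block of S100 genes on chromosome 3. S100a13 spans chr3:90514435-90524581, S100a4 chr3:90603771-90606045 and S100a6 chr3:90612882-90624181, all on the plus strand, with 6836 bases between the last pair. S100a5 (chr3:90608523-90611780) lies in that gap. S100a11 (chr3:93520488-93526287) and S100a10 (chr3:93555080-93564643) lie elsewhere on the same chromosome. Of the 13 genes between S100a1 and S100a9, the 3 members carried nearly all UMIs. S100a1, S100a2, S100a3 and S100a5 of the same block stayed at or under 5.75 CPM over all T cells of any library, and S100a8, S100a9, S100a7a, S100a14 and S100a16 had 0 UMIs there. For S100a8 and S100a9, which mark neutrophils, 0 UMIs in all 4801 barcodes allow a share of cells with a UMI of up to 0.0625%. The other members lie at chr19:20373428-20390944 (Anxa1, minus strand), chr9:69453620-69491795 (Anxa2), chr15:78926725-78930465 (Lgals1), chr14:47367751-47386160 (Lgals3) and chr12:113146316-113153879 (Crip1), the last 4 on the plus strand. The genes that overlap S100a4, Anxa1 and Anxa2 in the annotation had 0 UMIs in these T cells where they were counted.

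The 250 bases before the RefSeq start of 8 members were at hand (GRCm38.p6). Those of S100a4, S100a6 and S100a11 are shown. S100a6 and S100a4 lie close together, and of the members their levels differed most between CD8 T cells of the 2 young tissues. S100a11 followed the other members most closely. Capitals mark matches, on either strand, to 4 motifs: the TATA box was searched as TATAAA, the GC box as GGGCGG, the AP-1 site as TGANTCA and the CACCC box as CCACCC.
S100a4, chr3:90603520-90603769, plus strand: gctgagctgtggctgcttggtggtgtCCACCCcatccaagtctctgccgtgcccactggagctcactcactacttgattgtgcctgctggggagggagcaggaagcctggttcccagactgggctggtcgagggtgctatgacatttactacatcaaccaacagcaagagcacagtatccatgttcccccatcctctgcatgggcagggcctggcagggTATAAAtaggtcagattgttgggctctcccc
S100a6, chr3:90612644-90612893, plus strand: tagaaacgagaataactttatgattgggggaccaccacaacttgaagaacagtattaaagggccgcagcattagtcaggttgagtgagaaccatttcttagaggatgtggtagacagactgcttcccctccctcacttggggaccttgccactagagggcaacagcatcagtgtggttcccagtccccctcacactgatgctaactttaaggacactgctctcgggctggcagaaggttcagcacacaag
S100a11, chr3:93520246-93520495, plus strand: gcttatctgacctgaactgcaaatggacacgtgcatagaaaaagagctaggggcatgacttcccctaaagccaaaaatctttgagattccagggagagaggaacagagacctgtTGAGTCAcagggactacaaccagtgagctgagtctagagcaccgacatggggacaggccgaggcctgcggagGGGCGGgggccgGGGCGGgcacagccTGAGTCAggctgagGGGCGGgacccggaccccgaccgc
The windows differ in what they hold. S100a4 has a TATA box 31 bases before the start and a CACCC box, S100a11 has 3 GC boxes and 2 AP-1 matches without a TATA box, and S100a6 has none of the 4 motifs in this window. Over the 8 members, 3 windows held the TATA box, 4 the GC box, 2 the AP-1 site and 4 the CACCC box, against 12.4%, 32.7%, 6.75% and 28.1% of 32851 promoter windows of the same length. A match is a string of letters, not a measured binding site.

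All 10 members had higher levels in the aged than in the young library in each of the 6 comparisons (CD4, CD8 and neither, in meninges and choroid plexus). Levels are summed UMIs of a class as CPM, and the log2 ratio was taken after adding 10 CPM to both libraries. A gene was past the fold with a log2 ratio of at least 1 in size (2-fold) and at least 20 UMIs in the higher library. In the meninges, 6 of 10 members were higher past the fold in CD4 T cells, where 4.23% of all 5904 genes with enough UMIs were. In meningeal CD8 T cells it was 4 of the 9 members with enough UMIs (3.2% of genes), and in the neither class 8 of 10 (3.44%). In the choroid plexus, 7 of 10 were past the fold in CD4 T cells (7.27% of genes), 3 of 10 in CD8 T cells (2.46%) and 8 of 10 in the neither class (4.62%). No member was lower past the fold, where 1.86%, 1.83% and 1.42% of genes were for meningeal CD4, CD8 and neither T cells and 1.92%, 0.872% and 1.83% for the same classes of the choroid plexus. The members' median log2 ratio was 1.03, 0.96 and 1.61 for meningeal CD4, CD8 and neither cells and 1.37, 0.87 and 1.39 for those of the choroid plexus, and that of all genes lay between 0.04 and 0.16. The genes were chosen with these results known, so the counts describe them and support nothing further.

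**Figure D1:**
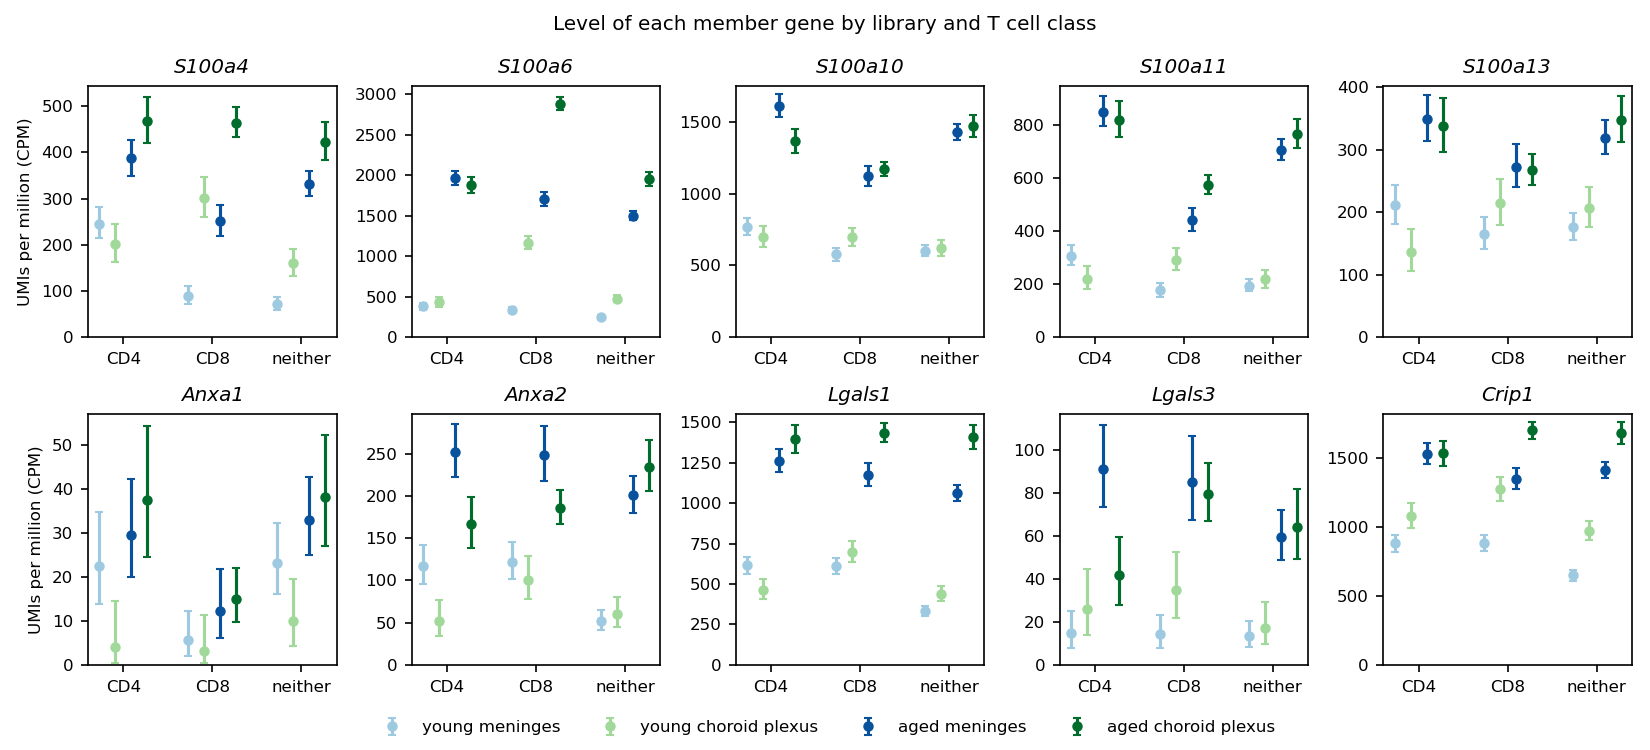
Level of each member (CPM, vertical axis from 0, own scale per gene) in CD4, CD8 and neither T cells of the 4 libraries, 1 point per library with its 95% exact Poisson interval. Both aged libraries lie above both young libraries for S100a6, S100a10, S100a11 and Lgals1 in every class, while S100a4 in young choroid plexus CD8 T cells (301 CPM) lies above aged meninges (251 CPM).

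S100a6, whose protein binds targets such as calcyclin-binding protein, showed the largest ratios. In CD4 T cells its level was 380 and 431 CPM in the young libraries (meninges, then choroid plexus) and 1964 and 1874 CPM in the aged ones. The young tissues lay close together and both aged libraries lay several-fold higher, with a log2 ratio of 2.34 (2.18 to 2.51) in the meninges and 2.10 (1.89 to 2.31) in the choroid plexus. In CD8 T cells the 4 levels were 337, 1166, 1700 and 2881 CPM. Here the young choroid plexus stood well above the young meninges, and the log2 ratio of aged over young was 2.30 (2.14 to 2.47) in the meninges but 1.30 (1.19 to 1.41) in the choroid plexus. In the neither class the levels were 252, 475, 1499 and 1951 CPM. In young choroid plexus CD4 T cells 1 of 160 cells held 59 of the 214 S100a6 UMIs, and without the 3 richest cells of each library and class, a setting chosen after seeing the data, the log2 ratio there was 2.73. The 3 richest cells held 43.0% of the young and 10.3% of the aged S100a6 UMIs there, so the setting itself raises the ratio. After drawing 1000 UMIs from each cell, an S100a6 UMI was present in 11.8% of the young CD8 T cells from the meninges (8.1% to 16.4%, Clopper-Pearson) and in 64.6% of the aged (58.6% to 70.3%). Unthinned, the shares were 20.5% and 77.2%. Cells with a UMI also carried more of them in aged CD8 T cells: 2.10 thinned UMIs per positive cell in young and 2.63 in aged meninges.

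S100a4 encodes a calcium sensor that binds non-muscle myosin and is used as a mark of memory T cells. Its levels were 246, 201, 387 and 468 CPM in CD4 T cells and 72, 160, 332 and 423 CPM in the neither class. In CD8 T cells they were 89.9, 301, 251 and 464 CPM, so that the young choroid plexus exceeded the aged meninges. The log2 ratio with age therefore ran from 0.61 (choroid plexus CD8) and 0.63 (meninges CD4) to 2.07 (meninges neither). A few cells held many of the young UMIs: 3 of 254 young meningeal CD8 T cells carried 44.2% of the class's S100a4 UMIs, against 10.1% in the 3 richest of 281 aged cells. Without the 3 richest cells the S100a4 ratio was 1.98 in meningeal CD8 T cells and 1.03 in meningeal CD4 T cells. In both, leaving these cells out takes a larger share from the young than from the aged sum, which itself raises the ratio.

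S100a10 and Anxa2 form 1 membrane complex, yet their levels differed several-fold. UMIs of 5′ ends count molecules without a bias from gene length. Whether both transcripts were captured and mapped equally well was not tested, so the gap is one of counted UMIs. In CD4 T cells S100a10 stood at 768, 701, 1614 and 1366 CPM and Anxa2 at 117, 52.3, 252 and 166 CPM in the same order of libraries. In CD8 T cells S100a10 stood at 577, 697, 1121 and 1173 CPM and Anxa2 at 122, 101, 249 and 186 CPM. Both genes were higher in the aged libraries of each class. The log2 ratio of Anxa2 was lowest in choroid plexus CD8 T cells (0.82, 0.46 to 1.19) and highest in the choroid plexus neither class (1.79), and that of S100a10 ran from 0.74 (choroid plexus CD8) to 1.24 (choroid plexus neither). Without the 3 richest cells of each class the Anxa2 ratio in choroid plexus CD4 T cells was 2.14. These cells held 50% of the young and 10.8% of the aged Anxa2 UMIs there, so leaving them out itself raises the ratio. S100a10 was widespread in young cells already: 43.1% of thinned young meningeal CD4 T cells had a UMI, and 74.2% of aged ones.

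S100a11, which can bind Anxa1, was past the fold in all comparisons but choroid plexus CD8. Its CD4 levels were 308, 221, 851 and 821 CPM and its CD8 levels 177, 293, 443 and 576 CPM. The log2 ratio was 1.44, 1.28 and 1.81 in meningeal CD4, CD8 and neither T cells and 1.84, 0.95 and 1.77 in their choroid plexus counterparts. S100a13, whose protein is linked to the release of proteins that lack a signal peptide, differed less. It stood at 211, 137, 350 and 338 CPM in CD4 T cells and 166, 214, 273 and 267 CPM in CD8 T cells, and it was past the fold only in choroid plexus CD4 T cells (1.24, 0.88 to 1.62).

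The galectins Lgals1 and Lgals3 stood far apart in level. Lgals1, a secreted galectin that T cells make on activation, stood at 615, 465, 1260 and 1396 CPM in CD4 T cells and 609, 697, 1172 and 1435 CPM in CD8 T cells. Its log2 ratio was 1.02 (0.88 to 1.17), 0.93 (0.79 to 1.07) and 1.64 for the 3 meningeal classes and 1.57, 1.03 and 1.66 for those of the choroid plexus, so that meningeal CD8 T cells alone fell short of the fold. Lgals3 was scarce, at 14.7, 26.2, 90.9 and 41.6 CPM in CD4 T cells and 14.2, 34.7, 85.1 and 79.5 CPM in CD8 T cells. In meningeal CD4 and CD8 T cells its log2 ratio was 2.03 (1.45 to 2.57) and 1.97 (1.42 to 2.49), while in choroid plexus CD4 T cells the interval reached below 0 (0.51, -0.23 to 1.24). Single cells weigh on these sums: 1 of 362 aged meningeal CD4 T cells held 25 of the 92 Lgals3 UMIs, and 1 of 358 aged choroid plexus neither cells held 22 of 64. Without the 3 richest cells of each library and class the Lgals3 ratio was 1.86 and 1.80 in these 2 comparisons. Those cells held 46.2% of the young and 40.2% of the aged Lgals3 UMIs in meningeal CD4 T cells. In the choroid plexus neither class it was 85.7% and 48.4%, so the setting itself raises the ratio there.

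Anxa1, whose protein restrains inflammation through formyl peptide receptors, was the scarcest member. In CD4 T cells it had 20, 2, 30 and 27 UMIs, or 22.6, 4.03, 29.6 and 37.4 CPM. The 3 meningeal ratios had intervals that reached below 0 (0.28, -0.33 to 0.89 in CD4), so that no difference was detectable at this depth, and the choroid plexus CD4 ratio of 1.76 (0.83 to 2.37) rests on 2 UMIs in the young library. Crip1 was the most abundant member in each class of the young libraries, and its ratios were among the lowest. It stood at 882, 1081, 1532 and 1535 CPM in CD4 T cells and 884, 1275, 1352 and 1703 CPM in CD8 T cells, and passed the fold only in the meningeal neither class (1.11, 1.01 to 1.22). In young meningeal CD8 T cells 46.5% of thinned cells already had a Crip1 UMI, and 67.9% of aged ones.

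**Figure D2:**
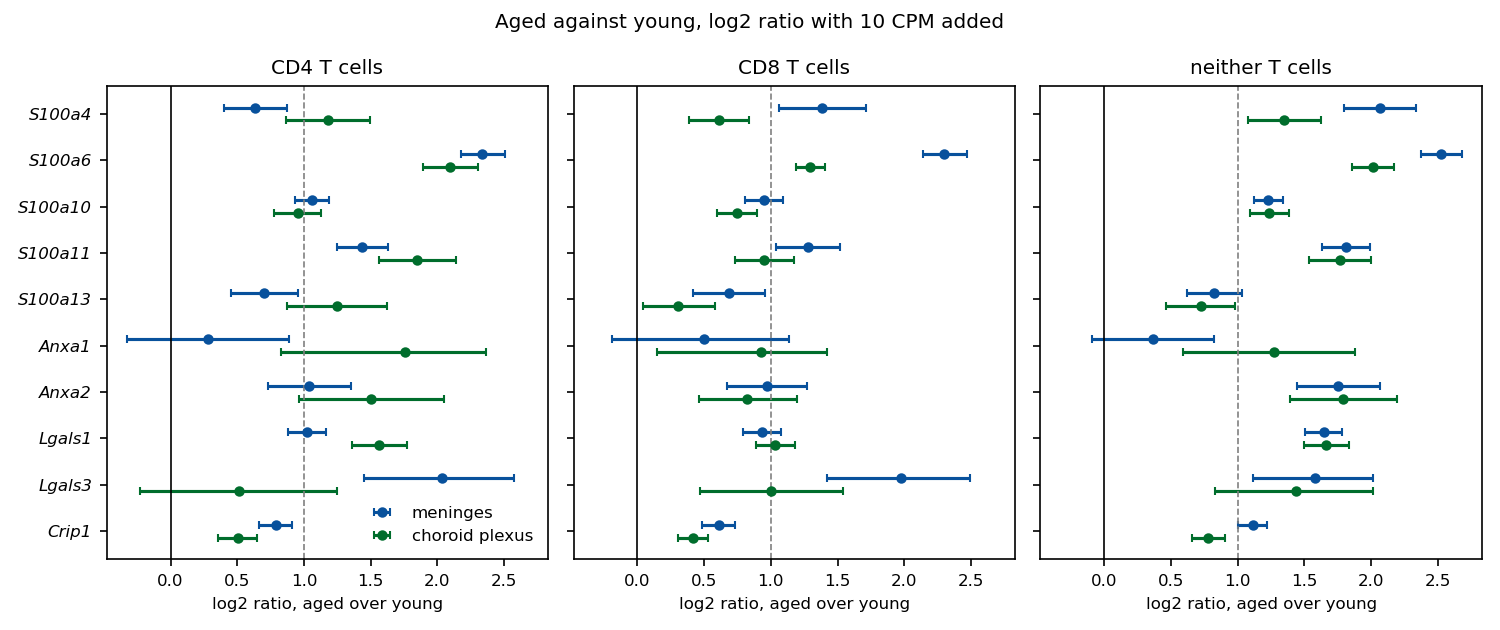
Log2 ratio of aged over young for each member (horizontal axis, with 95% counting intervals) in CD4, CD8 and neither T cells, blue for meninges and green for choroid plexus; the dashed line is the 2-fold. All points lie above 0, S100a6 lies furthest to the right in the meninges (2.30 to 2.53), and Crip1 stays at or under 1.11.

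Summed over the 10 genes, members made up 0.286% and 0.374% of the UMIs of young T cells (meninges, then choroid plexus) and 0.731% and 0.851% of those of aged T cells. The shift was seen across cells and not in a small group alone. With cells thinned to 1000 UMIs, the median CD4 T cell had 2 and 1 member UMIs in the young meninges and choroid plexus and 7 in each aged library. For CD8 T cells the medians were 1, 3, 6 and 8. Cells without any member UMI made up 22.0% of young meningeal CD8 T cells (17.1% to 27.7%) and 3.3% of aged ones (1.5% to 6.1%), and 30.2% of young choroid plexus CD4 T cells (23.2% to 38.0%) and 1.3% of aged ones (0.3% to 3.8%). A thinned cell with UMIs of at least 5 different members was rare in the young meninges (5.12% of CD8 T cells) and common in the aged (32.1%). In droplet data free RNA can add UMIs to any cell, and no cell type that should lack these genes was sorted. Ccr7-positive cells, described next, serve as the low reference among the T cells of the young libraries. In the aged libraries they are a weak reference, since their own levels were high. In aged choroid plexus CD4 T cells they stood at 7155 CPM, against 8177 CPM in Ccr7-negative ones. They do not measure free RNA.

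**Figure D3:**
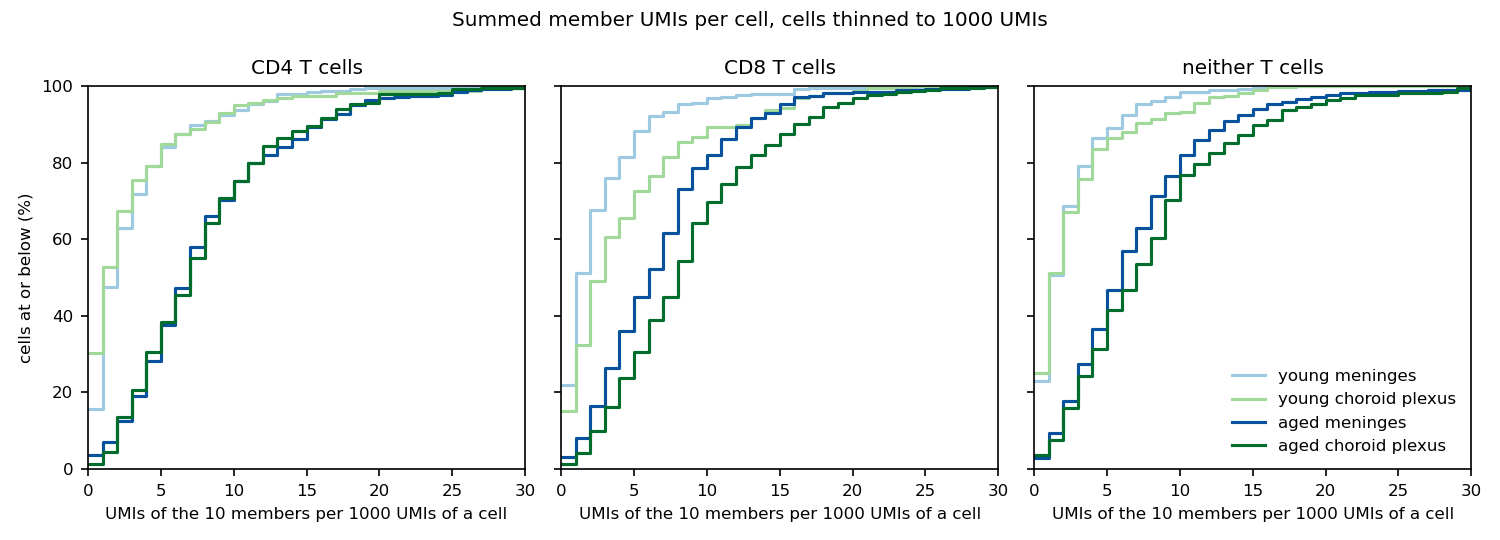
Cumulative share of cells (vertical axis, %) by the number of UMIs of the 10 members per 1000 UMIs of a cell (horizontal axis), for the 3 classes and 4 libraries. Below 10 UMIs the 2 aged curves lie to the right of the 2 young curves in each class, and in CD8 T cells the young choroid plexus (median 3) lies between young meninges (median 1) and the aged libraries (medians 6 and 8).

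Summed member levels ran opposite to transcripts of naive-like T cells. Ccr7, a homing receptor of naive and central memory T cells, had a UMI in 57.5% of CD4 T cells in young and 9.67% in aged meninges, and the CD8 shares were 64.6% and 8.90%. For the choroid plexus the young and aged shares were 62.5% and 11.3% (CD4) and 47.5% and 9.51% (CD8). In the young libraries, summed member levels of Ccr7-positive cells were low: 2304 CPM in meningeal CD4 T cells against 5213 CPM in Ccr7-negative ones, and 2342 CPM in choroid plexus CD8 T cells against 7118 CPM. S100a6 in young choroid plexus neither cells stood at 30.3 CPM with Ccr7 (13 UMIs) and 979 CPM without it. In the aged libraries the levels were 5933 CPM with and 8603 CPM without Ccr7 in meningeal CD4 T cells and 6912 and 9064 CPM in choroid plexus CD8 T cells. Between Ccr7-negative and Ccr7-positive cells, the members' median log2 ratio was 1.17 and 1.96 in young and 0.61 and 0.57 in aged meningeal CD4 and neither cells. That of all genes was 0.14 and 0.15 in young and 0.18 and 0.21 in aged cells. Meningeal CD8 T cells did not share the smaller aged median, which was 1.002 in young and 1.203 in aged cells. The median of all genes was higher in the aged cells too (0.085 in young, 0.363 in aged). Summed member levels showed no larger aged ratio. Without and with Ccr7 they were 4388 and 2232 CPM in young and 7088 and 3803 CPM in aged cells. The aged values rest on 25 Ccr7-positive cells, in which S100a4 had 0 UMIs. For the choroid plexus classes the members' median log2 ratio was 1.44, 1.35 and 1.68 in young and 0.18, 0.42 and 0.43 in aged cells. That of all genes was 0.03, 0.21 and 0.10 in young and 0.23, 0.16 and 0.15 in aged cells. In aged choroid plexus CD4 T cells the members thus lay no higher than the median gene. The cells behind these values differ in number and depth. Only 25 to 70 cells per class were Ccr7-positive in the aged libraries, and they carried 1.42 to 1.90 Ccr7 UMIs each, against 2.03 to 3.29 in the young libraries. Whether such cells carry Ccr7 from free RNA was not tested.

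The age ratio shrank when cells with these transcripts were left out. In cells without a Ccr7 UMI, 2, 2 and 3 members were past the fold in meningeal CD4, CD8 and neither T cells (3.40%, 4.29% and 2.64% of genes) and 2, 0 and 3 in those of the choroid plexus (7.83%, 3.14% and 4.14% of genes). The members' medians were 0.57, 0.57 and 0.84, and 0.64, 0.40 and 0.97. When cells with a UMI of Lef1, a transcription factor of naive T cells, were left out too, the counts were 2, 0 and 1 in the meninges (4.93%, 5.38% and 3.42% of genes) and 0 in all 3 classes of the choroid plexus (10.2%, 4.86% and 5.57% of genes), with medians of 0.42, 0.23 and 0.69 (meninges) and of 0.14, 0.16 and 0.13 (choroid plexus). This left 25 to 125 young cells per class. S100a6 remained above 0 in all 6 comparisons of this kind, at 1.18, 0.69 and 1.32 for the meningeal classes and 0.67, 0.13 and 0.19 for the others, and was past the fold in 2 of them. Lgals3 in meningeal CD4 T cells (1.54) was the remaining value past the fold. In choroid plexus CD4 T cells Lgals3 had the lowest value of any member and comparison (-1.13), on too few UMIs to be called. S100a4 lay below 0 in 4 of the 6, for example -0.63 in choroid plexus CD4 T cells, and Anxa2 did so in 4. How much of the age difference in a whole class comes with the smaller share of naive-like cells, and how much from levels within the remaining cells, cannot be told apart with 1 library per age.

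**Figure D4:**
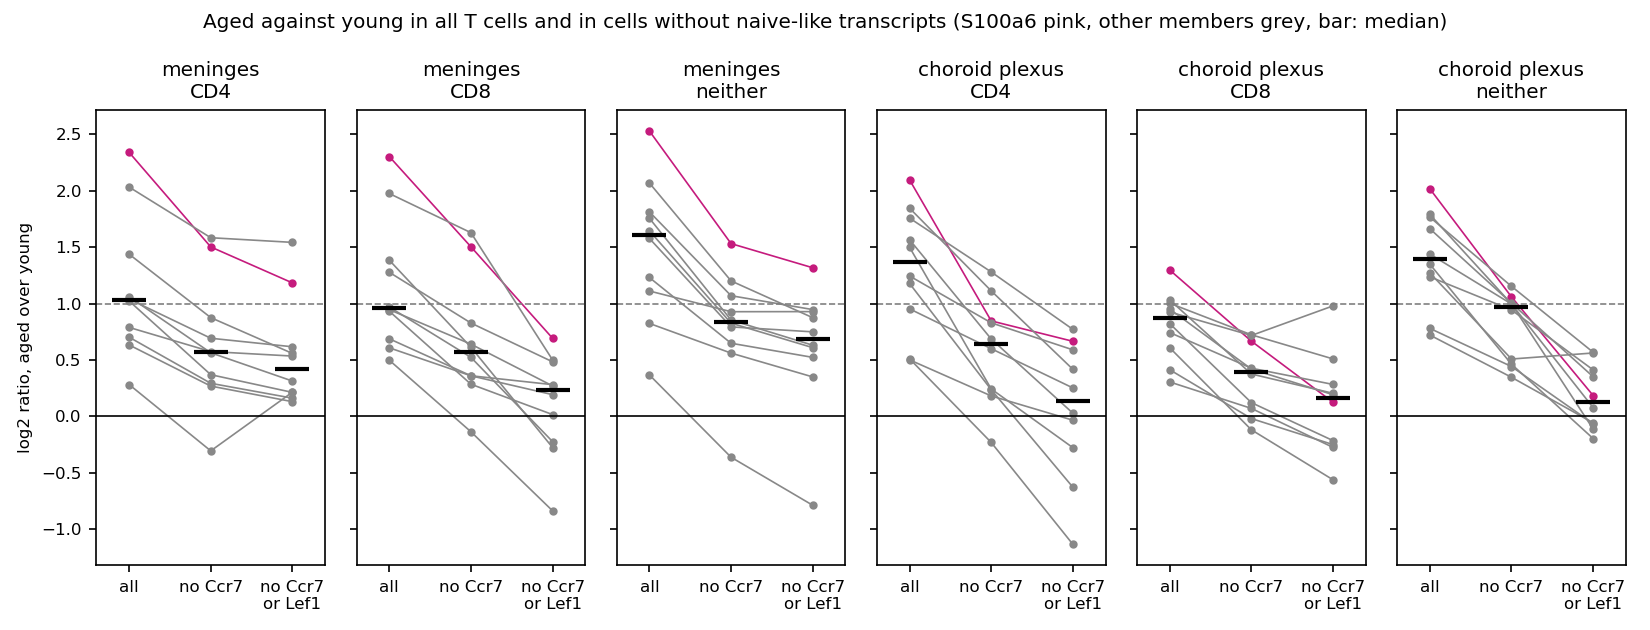
Log2 ratio of aged over young (vertical axis) for each member in all cells of a class, in cells without a Ccr7 UMI and in cells without a Ccr7 or Lef1 UMI, for the 6 comparisons; S100a6 is pink, the other members grey and the black bar is the median. The medians drop from between 0.87 and 1.61 in all cells to between 0.13 and 0.69 in cells without both transcripts, and S100a6 in the meninges ends at 1.18, 0.69 and 1.32.

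Within Ccr7-positive cells, by contrast, several members were far higher in the aged libraries. S100a6 had 25 UMIs in 100 young and 156 UMIs in 26 aged Ccr7-positive CD4 T cells of the choroid plexus (78.7 and 1658 CPM, log2 ratio 4.23, 3.67 to 4.82). In the meninges it had 62 UMIs in 146 young and 131 in 35 aged cells (log2 ratio 3.26). The S100a4 values went the other way in CD8 and CD4 T cells of the meninges: 0 UMIs in 25 aged Ccr7-positive CD8 T cells against 27 in 164 young ones, and 11 UMIs in 35 aged CD4 T cells against 85 in 146 young ones (log2 ratio -0.62, -1.55 to 0.22). In Ccr7-positive choroid plexus CD8 T cells S100a4 was higher with age (2.22, 1.61 to 2.85).

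The tissues differed in young CD8 T cells. Between choroid plexus and meninges, S100a6 (log2 ratio 1.76, 1.58 to 1.94) and S100a4 (1.64, 1.31 to 1.98) were higher past the fold in the young choroid plexus, where 2.72% of genes were past it in either direction. Both stayed higher in Ccr7-negative CD8 T cells alone, with 1907 CPM against 648 CPM for S100a6 (log2 ratio 1.54) and 518 CPM against 185 CPM for S100a4 (1.44). These cells were not matched for Lef1: 51 of 84 in the choroid plexus and 40 of 90 in the meninges lacked it too. The tissues were not compared in cells without both transcripts. Markers of choroid plexus epithelium (Ttr, Enpp2, Kcnj13 and Folr1) stood at 175 CPM in young choroid plexus CD8 T cells and at 9.80 CPM or less elsewhere, and 108 of those 111 UMIs were in 1 of the 160 cells. In cells without an epithelial UMI, a selection made after seeing the data, the ratios were 1.79 for S100a6 and 1.75 for S100a4. The young neither class had S100a4 past the fold as well (1.06, 2.07% of genes). Young CD4 T cells showed the opposite pattern for the annexins: Anxa1 (-1.22) and Anxa2 (-1.03) were lower past the fold in the choroid plexus, where 3.75% of genes were past it, on 2 and 26 UMIs. In Ccr7-negative CD4 T cells alone the Anxa2 ratio was -0.15 (-0.82 to 0.49), and in Ccr7-positive ones, with 1 UMI in the choroid plexus and 44 in the meninges, it was -2.89. In the aged libraries no member was past the fold between tissues in CD4, CD8 or neither T cells, where 2.26%, 1.38% and 1.49% of genes were. The aged CD8 values kept the young direction at a smaller size, with 0.76 (0.68 to 0.84) for S100a6 and 0.86 (0.66 to 1.07) for S100a4. The age comparisons of the 2 tissues do not share a library, but each library serves in both an age and a tissue comparison.

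CD8 and CD4 T cells of the same library differed by few members. In young meninges S100a4 (-1.36) and Anxa1 (-1.05) were lower past the fold in CD8 T cells, where 2.81% of genes were past it in either direction. In young choroid plexus S100a6 was higher past it (1.42, 1.20 to 1.64), where 3.54% of genes were. Aged meninges and aged choroid plexus had no member past the fold, against 4.51% and 3.35% of genes. Below the fold, S100a11 and S100a10 were lower in aged CD8 than in aged CD4 T cells of both tissues, with S100a11 at -0.93 (-1.10 to -0.76) in the meninges and -0.50 (-0.65 to -0.36) in the choroid plexus, while S100a6 was lower in the meninges (-0.21) and higher in the choroid plexus (0.62). The median of all genes was -0.16 in aged meninges and -0.06 in aged choroid plexus, so the meningeal S100a6 value lay near it.

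Gates by single transcripts placed the members among T cell states. A gate is all T cells of a library with a UMI of the named gene, so gates overlap and favour deeper cells. The lowest summed levels were those of Ccr7-positive cells in each library, at 1901, 2201, 4836 and 6808 CPM in the usual order. Cells with Gzmb, a granule protease of cytotoxic cells, had the highest in the aged choroid plexus (12477 CPM in 101 cells) and in the aged meninges (11126 CPM in 78 cells), the latter beside cycling cells with Mki67 or Top2a (11107 CPM in 73 cells). Cycling cells were high in young tissue too, at 7522 CPM in the meninges (40 cells) and 8815 CPM in the choroid plexus (30 cells). In the young choroid plexus the highest gate was Itga1, an integrin of tissue-resident T cells (10316 CPM in 36 cells), with S100a6 at 3303 CPM. The members did not follow each gate in the same way. Foxp3-positive cells, the regulatory T cell gate, had the most S100a10 of the gates in aged meninges (2004 CPM; 1716 CPM in aged choroid plexus) with S100a6 at 1650 and 2089 CPM. Gzmb-positive cells of the aged choroid plexus reached 3957 CPM of S100a6 and 223 CPM of Lgals3. Cells with Tnfsf8, which encodes CD153, had the highest S100a11 of the gates in both aged libraries (906 and 933 CPM). Klrb1c-positive cells of the young meninges had 166 CPM of Anxa1, the highest of any gate. Between ages, the choroid plexus gates spread widely, from 9136 CPM in young and 9079 CPM in aged cells for Gzmk and 10316 and 9330 CPM for Itga1 to 5674 and 8405 CPM for Gata3 and 3997 and 8760 CPM for Tnfsf8. For the meninges the Gzmk gate summed to 5786 CPM (young) and 7401 CPM (aged).

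**Figure D5:**
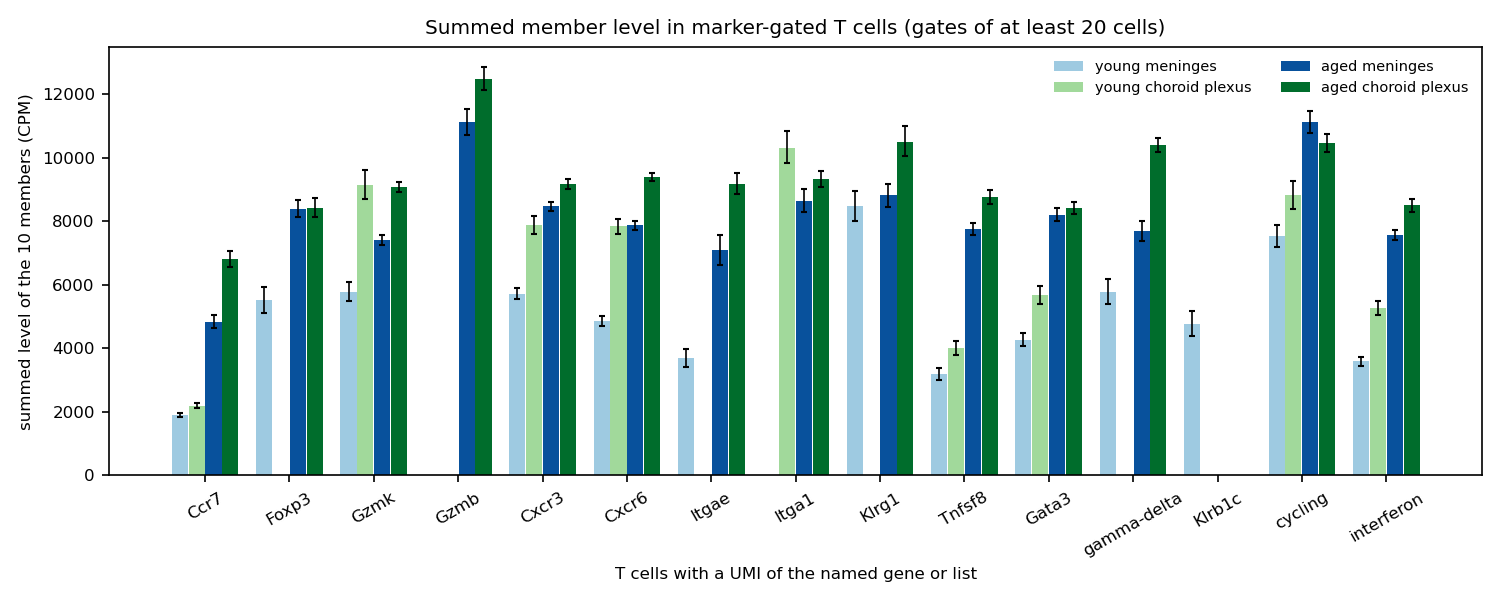
Summed level of the 10 members (CPM, bars from 0 with 95% exact Poisson intervals) in T cells with a UMI of each gate, for each library with at least 20 such cells; cells may be in several gates. Ccr7-positive cells are lowest in all 4 libraries, from 1901 CPM in young meninges to 6808 CPM in aged choroid plexus, and Gzmb-positive cells reach 12477 CPM in aged choroid plexus.

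The members did not vary together to the same degree. Over the 12 profiles (4 libraries by 3 classes, which share libraries), the correlation of a member's log2 level with the mean of the other 9 was 0.97 for S100a11, 0.96 for S100a10, 0.96 for Lgals1, 0.93 for S100a6 and 0.55 for Anxa1. Over single cells within a library and class, pairs of members correlated weakly (thinned counts, members with a UMI in at least 10 cells). The pair with the highest median was S100a6 with Lgals1 (0.34, range 0.19 to 0.57 over 12), and S100a4 with S100a6 had 0.28 (0.12 to 0.62 over 11). In counts this sparse these are descriptions only. Outside the list, the 8 genes whose profile was most like the members' mean, among 2373 genes with a mean of at least 50 CPM, were Txn1 (0.98), AW112010 (0.98), Ndufb7 (0.97), Gng2 (0.97), Clic1 (0.97), Lamtor4 (0.97), Ahnak (0.96) and Ech1 (0.96).

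Relatives and partners of the members were read from a list of 52 genes, of which 51 were in the files. With enough UMIs, 4 of 19 were higher past the fold with age in meningeal CD4 T cells (4.23% of all genes), 2 of 20 in CD8 (3.2%) and 6 of 24 in the neither class (3.44%). In the choroid plexus it was 6 of 20 (7.27% of all genes), 5 of 22 (2.46%) and 4 of 20 (4.62%). None was lower. In all, 8 genes passed the fold at least once, and 6 of these are partners or receptors. Ahnak, a large scaffold protein that binds S100a10 and Anxa2, passed in all 6, with CD4 levels of 122, 105, 358 and 378 CPM. Vim, the intermediate filament protein vimentin, passed in 5, with 608, 459, 1301 and 1031 CPM in CD4 T cells. Capg, an actin-capping protein, passed in 5, and its level was several-fold higher in CD4 than in CD8 T cells (314 and 61.9 CPM in aged meninges, 302 and 65.1 CPM in aged choroid plexus). Lag3, an inhibitory receptor that galectin-3 can bind, passed in all 6 from young counts of only 1 to 8 UMIs, for example 8 against 30 UMIs in meningeal CD8 T cells (log2 ratio 1.30, 0.64 to 1.87). Itgb1, a receptor that binds galectins, passed in the meningeal neither class (1.12). Lgals7 had 26 UMIs in aged and 0 in young choroid plexus CD4 T cells, which is at least 5.96-fold higher when set against 3 counts in that young class. Anxa7 passed in 2 comparisons and Lmna in 1. Other S100 genes were nearly absent: at most 1 of the 13 had enough UMIs in any comparison.

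Transcripts of other cell types were looked for in the same classes. The 4 neutrophil genes had 0 UMIs in all 12, and the 5 fibroblast genes at most 1.15 CPM. The macrophage list of 7 genes summed to between 89.1 and 500 CPM, with Adgre1 at 0. It was higher with age in CD4 T cells (89.1 and 500 CPM in the meninges, 125 and 452 CPM in the choroid plexus), mostly through Cst3, which gave 455 of the 500 CPM. In meningeal CD8 T cells it stood at 131 and 117 CPM. Erythroid genes reached 452 to 483 CPM in aged meningeal CD8 T cells and in the neither class of both meningeal libraries, and B cell genes 65.2 to 263 CPM, and their part in the member levels was not tested. Gamma-delta T cell receptor genes were higher with age in CD8 T cells, at 23.7 (young) and 91.7 CPM (aged) for the meninges and 18.9 and 181 CPM for the choroid plexus. In cells without a UMI of macrophage, neutrophil, B cell, fibroblast, endothelial or epithelial markers, 7, 5, 7, 7, 5 and 8 members were past the fold with age (meninges CD4, CD8 and neither, then choroid plexus), where 6.9%, 6.87%, 6.08%, 11.8%, 7.3% and 8.13% of genes were, with medians from 1.08 to 2.13. In cells without gamma-delta or natural killer markers it was 6, 7, 8, 7, 5 and 8, where 4.79%, 4.43%, 4.21%, 7.44%, 3.81% and 5.06% of genes were.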

How the data were processed

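The deposited values are unscaled UMI counts of each gene in each cell. The authors obtained them with Cell Ranger (3.1.0 in the matrix headers, 5.1.0 in the submitters' processing notes, which also name STAR and mm10), and no normalization was applied, so a total depends on how deeply a library was sequenced. The matrices held 1111, 718, 1695 and 1277 called cells with 3737140, 2295950, 4262917 and 3957717 UMIs. The limits of the study (200 to 7000 genes, at most 5% mitochondrial UMIs) were applied. Scrublet in scanpy, used in place of the study's doublet caller with an expected 0.8% of doublets per 1000 cells, marked 16, 22, 0 and 5 cells. In the aged meninges it marked none, so doublets remain there, and an alternative removed the 5% of cells with the highest scores.

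Counts were summed per library and class. With 1 library per condition no test over mice was possible, and cells were not used as replicates, so the Wilcoxon test of the study was not repeated. CPM intervals are exact Poisson intervals, shares have exact Clopper-Pearson intervals, and the interval of a log2 ratio combines the intervals of both levels. Shares and co-detection used 1000 UMIs drawn from each cell without replacement (seed 0). Intervals cover counting error only. The members, lists, gates, rule of size and alternatives were chosen with earlier results of these data known. Genes named beside the members were related genes past the fold at least once, with values for the 6 of largest mean ratio, and the 8 genes most like the members' mean. Of the gene identifiers in the files, 31011 of 31053 are in GENCODE vM21. Promoter sequences came from RefSeq (GRCm38.p6). Python 3.11.15, scanpy 1.11.5, numpy 2.4.6, pandas 2.3.3, scipy 1.17.1 and matplotlib 3.10.9 were used.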

Additional observations from a re-analysis of the deposited data

Results flagged for a closer look

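Some members had opposite directions in 2 groups under the same contrast, with both counting intervals apart from 0. The differences between the groups were not tested, since each group is 1 library. Between CD8 and CD4 T cells, the log2 ratio in young meninges minus that in young choroid plexus was -1.92 for S100a4, -1.16 for S100a11 and -0.94 for S100a13: these genes were lower in CD8 than in CD4 T cells of the young meninges and higher in the young choroid plexus. For the same contrast in the aged libraries the difference was -0.82 for S100a6 and -0.33 for Crip1. The median CD8 over CD4 ratio of all genes was -0.13 in young and -0.16 in aged meninges. In young and in aged choroid plexus it was -0.06. The aged meningeal values of S100a6 (-0.21) and Crip1 (-0.18) lay near that median. For these a change of direction relative to all genes was not shown. S100a11 and S100a13 also changed direction between young and aged choroid plexus, by 0.89 and 0.94. Between choroid plexus and meninges, Lgals1 in CD4 T cells was lower in the young and higher in the aged choroid plexus (difference -0.54).

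Cells that lacked UMIs of all 3 CD3 genes were in no comparison, and members were detected in them above the limit of 3 counts in 3 libraries: 1348 CPM in 12 cells of young meninges, 1046 CPM in 28 cells of aged meninges and 3311 CPM in 7 cells of aged choroid plexus. These levels lie under those of T cells from the same libraries.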

How the results depend on the processing

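No paired analysis was possible because each group has 1 library. Over 16 alternatives, 890 of 920 log2 ratios of single members with age lay above 0, and S100a6, S100a10, S100a11 and Lgals1 did so under every alternative. The alternatives with no minimum or at least 50 UMIs change only which genes are called. Each repeats the 60 ratios of the main setting by construction, so they add nothing to this tally. The others reuse the same 4 libraries. In cells without a Ccr7 UMI the number of members higher past the fold was 2, 2 and 3 (meningeal CD4, CD8 and neither) and 2, 0 and 3 (choroid plexus). Without a Ccr7 or Lef1 UMI it was 2, 0 and 1, and 0, 0 and 0, and S100a4 reversed to -0.27 in meningeal CD8, -0.63 in choroid plexus CD4 and -0.20 in choroid plexus neither T cells and Anxa2 to -0.28 and -0.11 in the last 2. In Ccr7-positive cells 1 member was higher past the fold in meningeal CD8 (0.515% of genes) and 7 in choroid plexus CD8 T cells (3.70% of genes). There, S100a4 in meningeal CD8 T cells reversed to -2.30, a value set by the added 10 CPM since the aged cells had 0 UMIs. Lgals3 reversed to -0.019 in the same meningeal cells and to -0.55 in choroid plexus neither T cells. For meningeal CD8 T cells the count of 4 became 7 with the mean over cells, with cells thinned before summing, without gamma-delta or natural killer markers and without the 3 richest cells of each member. For choroid plexus CD8 T cells the count of 3 became 1 with median of ratios scaling and 5 with the mean over cells, without markers of other cell types, without gamma-delta or natural killer markers and without the 3 richest cells. In CD8 T cells of both tissues the 3 richest cells held a larger share of each member's UMIs in young than in aged libraries. Leaving them out therefore raises the ratios by itself. For meningeal CD4 T cells the count of 6 became 3 when T cell receptor, mitochondrial and ribosomal protein genes were left out of the total. The share of all genes past the fold was not computed for the scaling, total, mean over cells, thinning and richest-cell alternatives. Whether the members or all genes moved under these cannot be told. Other causes of these shifts were not tested. The higher S100a6 and S100a4 of young choroid plexus CD8 T cells kept their direction in 3 selections of cells added after seeing the data (1.46 to 1.95 and 1.66 to 2.02). The highest values came without the 3 richest cells. These held 30.1% of the meningeal and 18.5% of the choroid plexus S100a6 UMIs, and 44.2% and 24.1% for S100a4, so that setting itself raises the ratio. The S100a4 value of 1.66, in cells without markers of other cell types, rests on 25 UMIs in the choroid plexus and 11 in the meninges. The smallest classes limit the scarce genes: Anxa1 had 2 UMIs in the young choroid plexus CD4 T cells.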
